A study of Mus musculus with 4 samples.

Results

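The 83 genes described here encode neurotransmitter receptors, and they are the genes whose symbol belongs to a receptor family named below. No measured value enters this rule, though the families were picked with earlier results of these data known. They are the subunit genes of the GABA-A (19 genes), glycine (5), AMPA (4), kainate (5), NMDA (7), neuronal nicotinic (11) and 5-HT3 (2) receptors, and the genes of the metabotropic glutamate (8), muscarinic (5), G protein-coupled serotonin (12) and dopamine (5) receptors. The muscle nicotinic subunits Chrna1 and Chrnb1 were left out. The 83 genes were listed under 101 of the 30794 RefSeq transcript IDs counted, and they were part of 23003 genes with a symbol. A gene with several IDs is represented by the ID with the most counts over all libraries.

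Neurotransmitter receptors sense the signals that nerve endings release. GABA-A and glycine receptors are chloride channels that inhibit neurons, whereas the AMPA, kainate and NMDA receptors for glutamate, the nicotinic receptors for acetylcholine and the 5-HT3 receptor for serotonin are cation channels that excite them. Each of these 53 genes gives 1 subunit of a channel assembled from several. The products of the other 30 genes work alone or in pairs and signal through G proteins. In the thymus, medullary epithelial cells transcribe many genes that are otherwise restricted to other tissues and show their products to developing T cells, and the transcriptional regulator Aire induces a large share of these tissue-restricted genes.

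RNA was sequenced from mTEChi, the mature medullary epithelium of the thymus, sorted as CD45-, Ly51- and I-A/E high from 4-week-old mice. The groups were wild-type B6 mice (WT) and B6 mice with the Aire-/- genotype (Aire-KO), all untreated, with the WT mice bought from a breeder and the Aire-deficient mice obtained from another laboratory. A first experiment gave 1 WT and 1 Aire-KO library and a replicate experiment gave 1 more of each, each library from the pooled thymi of 4 mice, so that n is 2 pools per genotype. The 4 libraries held 111077552 to 242862323 counts, and 3 counts, taken as the limit that a count of 0 allows, stood for 0.013 to 0.0252 counts per 1000000 (CPM). In bulk samples of this kind, fewer cells of a type and less RNA per cell cannot be told apart.

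The whole-gene count of Aire was not lower in the libraries labelled Aire-KO: it was 398 and 307 CPM in WT and 1380 and 765 CPM in Aire-KO (log2 fold change WT over Aire-KO -1.61 ± 0.44 SE, edgeR adjusted p = 0.0885, and 0.000448 with the experiment as a block). The deleted stretch was not given in the sources used here, so this count checks nothing about the labels, and WT and Aire-KO stand below for the libraries that carry those labels. Markers of mTECs were measured for 16 of 16 listed genes, with summed levels of 18600 and 30600 CPM in WT and 31300 and 38200 CPM in Aire-KO. Cd74 gave more than any other of the 16 (6480 and 8870 CPM in WT, 11700 and 14300 CPM in Aire-KO). Of the 16, 0 were higher and 0 lower in WT by edgeR, and 0 and 4 with the experiment as a block. The 21 neuronal and glial markers summed to 551 and 470 CPM in WT and 856 and 599 CPM in Aire-KO, sums to which Syt1 gave more than any other of the 21 (275 and 220 CPM in WT, 587 and 349 CPM in Aire-KO). The median log2 fold change of these markers was 1.37, with 4 (Nefl, Gap43, Gfap and Aqp4) higher and 0 lower in WT by the edgeR test described below, and 9 higher and 3 lower with the experiment as a block. Fibroblast and endothelial markers (12 of 12 measured) summed to 156 and 145 CPM in WT and to 344 and 338 CPM in Aire-KO. By the same test 3 of them (Col1a2, Col3a1 and Dpt) were lower in WT and 0 higher, and 6 and 0 with the block. The part of these markers in the results below was not tested. No marker of these 3 lists was at 0 in all libraries.

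All 83 receptor genes had reads in the first WT library, but most had few. Levels are given as RPKM, the CPM divided by the transcript length in kilobases, so that genes of different length can be compared. The median receptor gene stood at 0.325 RPKM in WT and 0.0899 RPKM in Aire-KO, which were percentiles 22.9 and 23.8 of the levels of 21470 genes. Of the 83 genes, 22 reached 1 RPKM in WT and 19 in Aire-KO, and 15 lay under 0.1 RPKM in WT against 43 in Aire-KO. The range was wide in both: from 0.0242 to 30.9 RPKM in WT and from 0 to 61.5 RPKM in Aire-KO.

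A few genes supplied most of the receptor transcripts. Htr7, a serotonin receptor that raises cyclic AMP, stood at 36.9 and 24.8 RPKM in the WT libraries and at 62.0 and 48.2 RPKM in the Aire-KO libraries. Grin2c, an NMDA receptor subunit typical of cerebellar granule cells, stood at 21.8 and 17.7 RPKM in WT and at 71.5 and 51.6 RPKM in Aire-KO. For both genes each WT library lay below each Aire-KO library, and neither difference passed the test (edgeR adjusted p = 0.303 for Htr7 and 0.0612 for Grin2c), whereas both passed with the experiment as a block (0.00814 and 0.000156). Together these genes made up 40.6% and 36.6% of the summed CPM of the 83 genes in WT and 55.3% and 60.6% in Aire-KO.

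**Figure D1:**
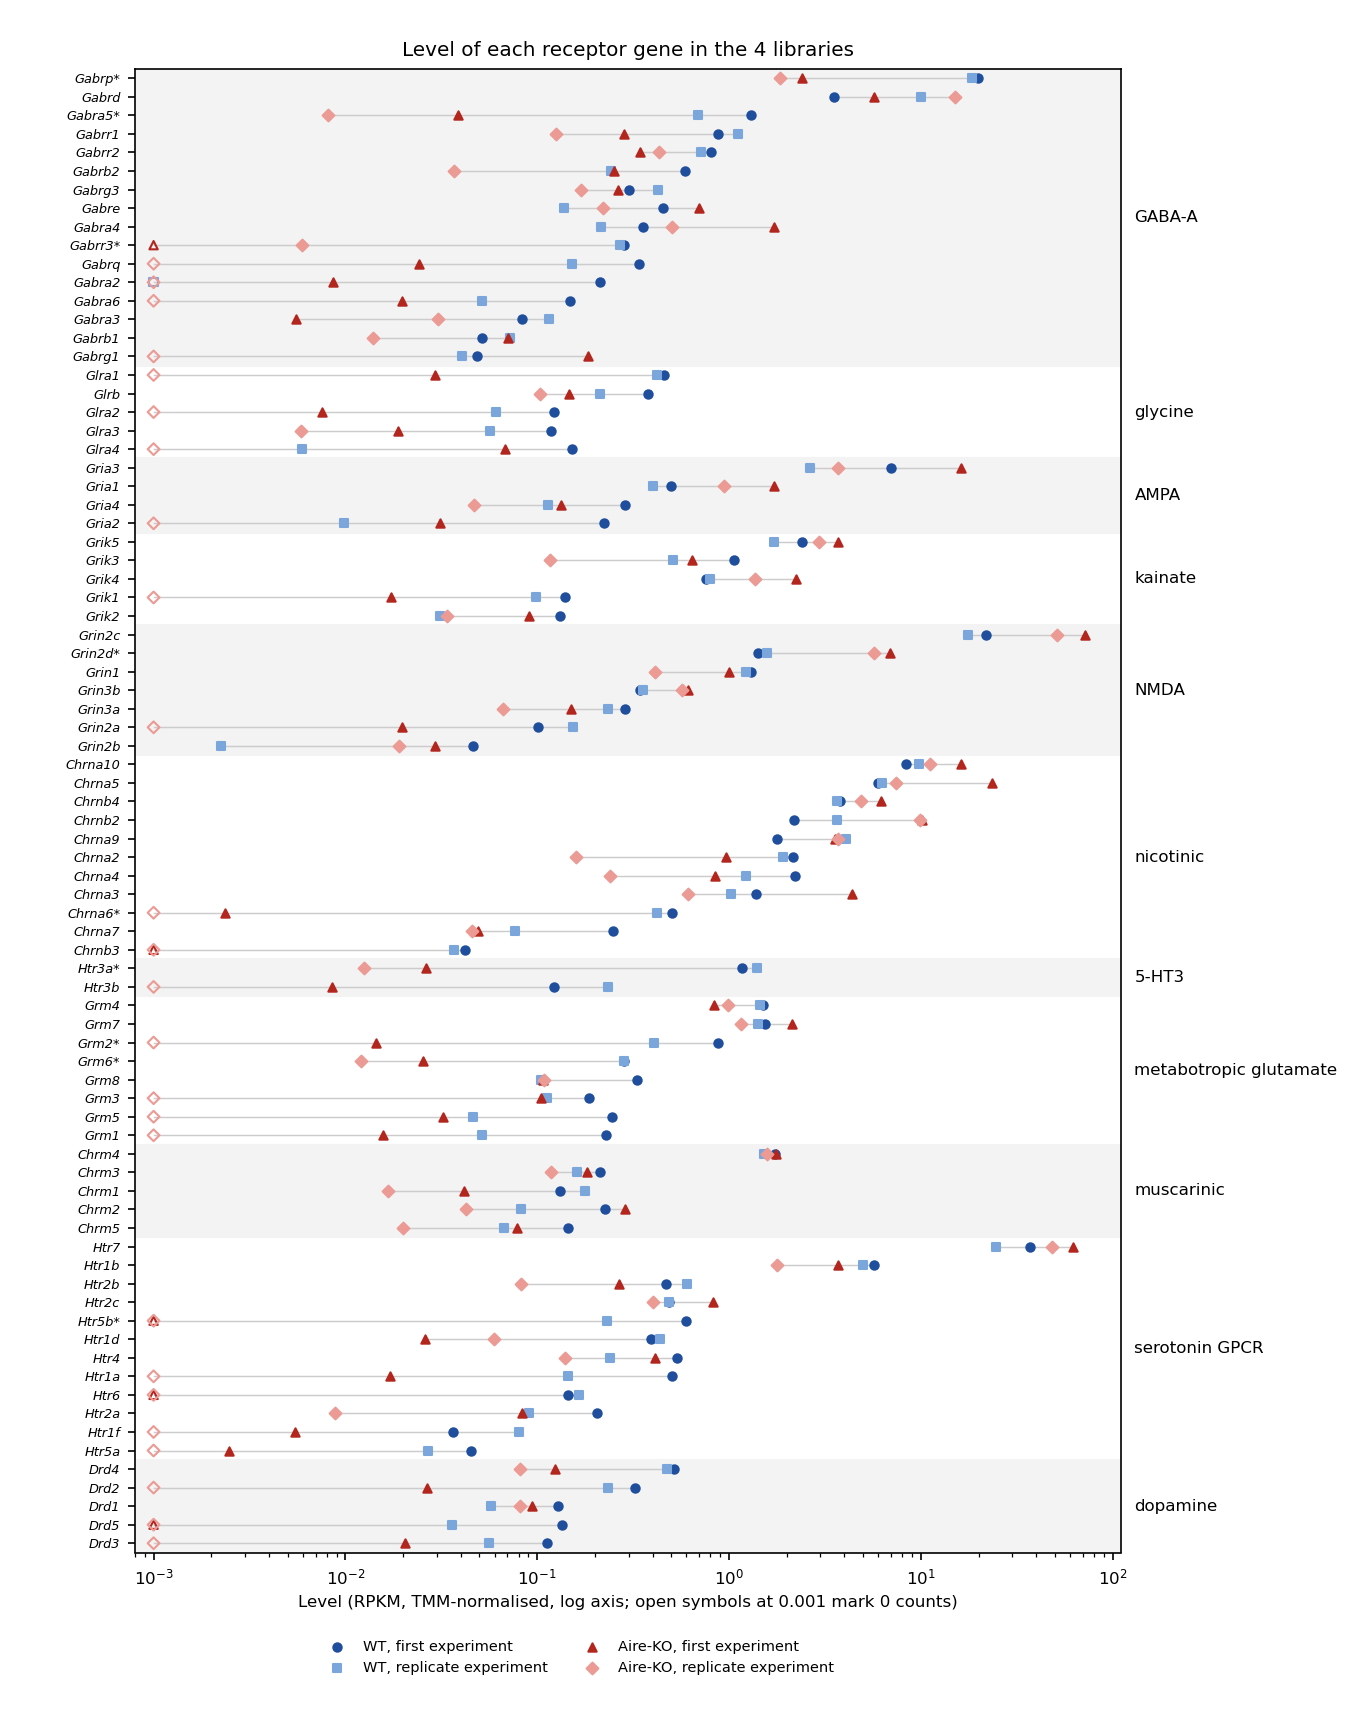
Level of 80 of the 83 receptor genes in RPKM (log axis) in the 4 libraries, grouped by receptor family, with an asterisk at genes past the threshold of 0.05 and open symbols for 0 counts. Most genes lie under 1 RPKM, Htr7 and Grin2c lie highest, and open symbols come mostly from the replicate Aire-KO library.

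Between genotypes, 9 receptor genes were higher in WT and 1 was lower. These were 9 and 1 of the 82 receptor genes that passed the filter on low counts, beside 5.58% higher and 0.258% lower among all 26790 RefSeq IDs tested (edgeR quasi-likelihood test, Benjamini-Hochberg adjustment over all IDs, threshold 0.05). The gene that did not pass the filter was Gabra2, the GABA-A alpha subunit common in the forebrain, with 111 and 0 counts in WT and 3 and 0 in Aire-KO. The median log2 fold change was 1.54 over the 82 genes and -0.03 over all IDs. With the experiment as a block, 31 receptor genes of 82 were higher and 9 lower, beside 16.5% and 10.4% of all IDs, and DESeq2 called 25 higher and 5 lower, beside 11.9% and 1.91%. The groups did not overlap at 47 receptor genes (57.3%) higher in WT, beside 28.4% of all IDs, and at 12 (14.6%) lower in WT, beside 20.9%. These shares of all IDs were not split by level, and most receptor genes were low. The count moved with single libraries: it was 40 higher and 2 lower without the first Aire-KO library, 17 higher and 7 lower without the replicate Aire-KO library, 7 and 1 without the first WT library, and 13 and 0 without the replicate WT library. In these fits the single library left in a group was assumed to vary like the libraries of the other group.

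The fitted direction differed with the level of the genes. Among 62 tested receptor genes with a mean under 1 RPKM over all libraries, 55 (88.7%) had a fitted value above 0 and 8 (12.9%) were called higher, beside 80.7% and 11.9% of the 6331 IDs at such levels. Among 20 receptor genes at 1 RPKM or more, 5 had a fitted value above 0, with 1 called higher and 1 lower (5.0% each), beside 36.8% above 0, 3.64% called higher and 0.324% called lower among 18199 IDs. At the same level, the share of receptor genes called higher was thus near that of all IDs. The median log2 fold change was 2.35 for the low receptor genes and -0.61 for the high ones, and it was 1.40 and -0.17 for all IDs of these levels.

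**Figure D2:**
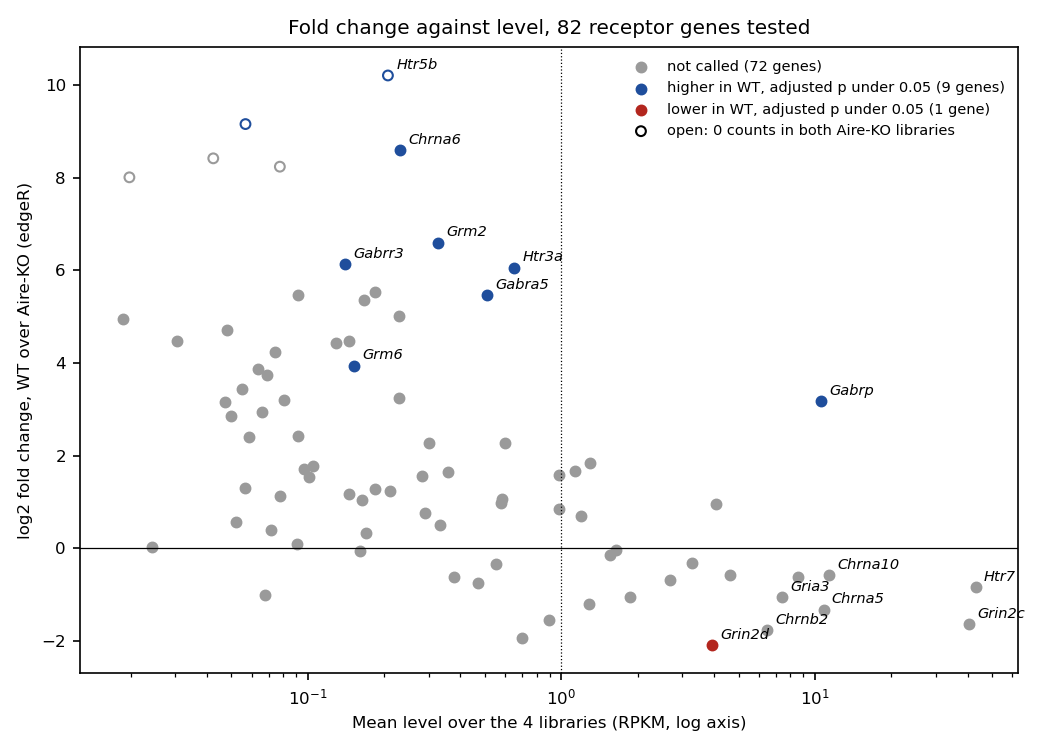
log2 fold change WT over Aire-KO from edgeR against the mean RPKM over the 4 libraries (log axis) for the 82 receptor genes tested, with open symbols for genes at 0 in both Aire-KO libraries, whose fitted values depend on the prior count. Blue points (9 genes higher in WT) lie left of 1 RPKM except Gabrp, and the red point is Grin2d.

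Among the GABA-A receptor genes, 4 of 18 tested (22.2%) were higher in WT and none was lower, beside 5.58% and 0.258% of all IDs. All tested genes of the family but Gabrp and Gabrd had a mean under 1 RPKM over all libraries. Of the IDs at such levels, 11.9% were called higher and 0.0158% lower. Of the 4 genes called, 3 are described. Gabrp encodes the pi subunit, which is known mainly from non-neuronal tissues such as the uterus. It stood at 19.8 and 18.4 RPKM in WT and at 2.39 and 1.85 RPKM in Aire-KO, so that the groups lay far apart. Its log2 fold change was 3.18 ± 0.38 (SE, edgeR adjusted p = 0.0177). Gabra5, an alpha subunit of hippocampal receptors outside synapses, had 764 and 221 counts in WT and 15 and 5 in Aire-KO (1.30, 0.693, 0.0386 and 0.00813 RPKM). The groups did not overlap, with a log2 fold change of 5.46 ± 0.95 (SE, edgeR adjusted p = 0.0333). An exon of Gabra5 overlaps 118 bp of Gm9962 on the other strand, and the libraries carried no strand.

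Gabrr3, a rho subunit of the kind found in the retina, had 90 and 47 counts in WT and 0 and 2 in Aire-KO. The ratio of its summed counts was 76.0, with an exact 95% counting interval of 20.6 to 634 (edgeR adjusted p = 0.0449). The call depended on single libraries: the adjusted p was 0.098 without the first and 0.104 without the replicate WT library.

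Gabrd and Gabra4 did not pass the test. The delta subunit Gabrd, part of receptors outside synapses, was second to Gabrp in WT and the highest of the family in Aire-KO, with 3.53 and 9.97 RPKM in WT and 5.71 and 15.1 RPKM in Aire-KO. Both genotypes stood higher in the replicate experiment. Within each experiment WT lay below Aire-KO, with log2 ratios of -0.62 and -0.59. The edgeR adjusted p was 0.711, and 0.057 with the block. Gabra4 lay lower in both WT libraries (0.357 and 0.214 RPKM) than in the Aire-KO libraries (1.71 and 0.502 RPKM), with an edgeR adjusted p of 0.179 and of 0.0104 with the block.

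Among the other inhibitory channels, no glycine receptor gene of 5 passed the test, and each of the 5 had a fitted value above 0. All 5 lay under 1 RPKM, where 80.7% of all IDs had a fitted value above 0. Glra1, the alpha subunit of adult spinal cord receptors, had the largest fold change of the family, and it was the highest of the family in WT, whereas Glrb, the beta subunit, was the highest in Aire-KO (mean 0.125 RPKM against 0.0147 RPKM for Glra1). It had 142 and 71 counts in WT and 6 and 0 in Aire-KO (log2 fold change 5.01 ± 1.44 SE, edgeR adjusted p = 0.0988). With the block the adjusted p was 0.015.

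The glutamate-gated channels held the gene that was lower in WT. Grin2d encodes an NMDA receptor subunit of the brainstem and of interneurons, and it stood at 1.41 and 1.57 RPKM in WT and at 6.91 and 5.73 RPKM in Aire-KO. The groups did not overlap, with a log2 fold change of -2.09 ± 0.37 (SE, edgeR adjusted p = 0.0343, and 0.0511 without the replicate WT library). Grin2d was the 1 gene called lower of 7 NMDA receptor genes (14.3%), beside 0.258% of all IDs. Of the 7 NMDA receptor genes, 3 lay lower in both WT libraries (Grin2c, Grin2d and Grin3b) and 3 lay higher in both (Grin1, the subunit that every NMDA receptor contains, Grin2a and Grin3a). These were 42.9% each, beside 20.9% of all IDs lower in WT without overlap and 28.4% higher. Grin1 stood at 1.30 and 1.22 RPKM in WT and 0.996 and 0.409 RPKM in Aire-KO, and 1307 bp of its exons overlap a noncoding transcript on the other strand. Grin2a, which had the largest fold change of the family, had 100 and 83 counts in WT and 13 and 0 in Aire-KO (edgeR adjusted p = 0.234).

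Without the block, no AMPA or kainate receptor gene passed the test. With the block, 1 of 4 AMPA genes was higher and 2 were lower in WT, and 2 of 5 kainate genes were higher and 1 was lower. Of all IDs, 16.5% were higher and 10.4% lower with the block. Gria3 was the highest AMPA subunit gene, with 6.96 and 2.63 RPKM in WT and 16.2 and 3.71 RPKM in Aire-KO, and the groups overlapped (edgeR adjusted p = 0.552, and 0.0149 with the block). Gria2 encodes the subunit that keeps AMPA receptors from passing calcium. It had 332 and 8 counts in WT and 31 and 0 in Aire-KO, so that its reads came almost wholly from the first experiment (log2 fold change 2.94 ± 1.97 SE, edgeR adjusted p = 0.504, and 0.0379 with the block). Grik5, a kainate subunit that works only with other subunits, stood at 2.39 and 1.72 RPKM in WT and 3.70 and 2.93 RPKM in Aire-KO. Grik1, with the largest fold change of its family, had 109 and 42 counts in WT and 9 and 0 in Aire-KO (edgeR adjusted p = 0.212, and 0.0472 with the block).

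The 11 nicotinic genes had the highest median level of the 11 families, at 2.03 RPKM in WT and 2.50 RPKM in Aire-KO. Of these genes 1 (9.09%) was called higher in WT, beside 5.58% of all IDs. Chrna6, an alpha subunit of the receptors on dopamine neurons, had 322 and 146 counts in WT and 1 and 0 in Aire-KO. The ratio of summed counts was 519, with an exact 95% counting interval of 92.8 to 20600 (edgeR adjusted p = 0.0201). Chrna10, which forms the receptor of cochlear hair cells together with Chrna9, was the highest of the family in WT, at 8.34 and 9.83 RPKM in WT and 16.2 and 11.2 RPKM in Aire-KO (edgeR adjusted p = 0.467). In Aire-KO the highest mean was that of Chrna5 (15.4 RPKM against 13.7 RPKM for Chrna10), a subunit that joins other nicotinic subunits. Chrnb2, the main beta subunit of brain nicotinic receptors, stood at 2.19 and 3.68 RPKM in WT and 10.2 and 9.88 RPKM in Aire-KO. This difference of -1.77 ± 0.41 (log2, SE) lay close to the threshold, with an edgeR adjusted p of 0.0578, and it passed with the block (0.000193). Chrnb4, a beta subunit of autonomic ganglia, differed by -0.57 ± 0.36 (log2, SE) with 3.78 and 3.66 RPKM in WT and 6.17 and 4.86 RPKM in Aire-KO.

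Htr3a, the subunit that every 5-HT3 receptor needs, was called higher in WT. It had 534 and 348 counts in WT and 8 and 6 in Aire-KO, or 1.17 and 1.40 RPKM against 0.0264 and 0.0125 RPKM. The log2 fold change was 6.06 ± 0.74 (SE, edgeR adjusted p = 0.018), and it stayed past the threshold in the 13 alternative settings tried. Its partner Htr3b had 65 and 67 counts in WT and 3 and 0 in Aire-KO, a ratio of 48.8 with a counting interval of 16.3 to 240.0, and an edgeR adjusted p of 0.0804 (0.0282 with the block).

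Among the G protein-coupled receptors, 3 of 30 were higher in WT and none was lower, beside 5.58% and 0.258% of all IDs. Most of the 30, and all 3 genes called, had a mean under 1 RPKM over all libraries. At such levels 11.9% of IDs were called higher and 0.0158% lower. Grm2, an autoreceptor on glutamate nerve endings, had 640 and 161 counts in WT and 7 and 0 in Aire-KO (log2 fold change 6.60 ± 1.39 SE, edgeR adjusted p = 0.0484). Grm6, known for its role at the ON bipolar cells of the retina, had 270 and 147 counts in WT and 16 and 12 in Aire-KO. For Grm6 the 2 WT libraries were alike at 0.285 RPKM each, and the Aire-KO libraries stood at 0.0254 and 0.012 RPKM (log2 fold change 3.94 ± 0.76 SE, edgeR adjusted p = 0.0398). The call for Grm6 was lost without either WT library (0.0563 and 0.0587), and 599 bp of its exons overlap a noncoding transcript on the other strand. Htr5b, a serotonin receptor of rodents, had 262 and 55 counts in WT and 0 in both Aire-KO libraries, at least 49.2-fold higher in WT against a floor of 3 counts per library (edgeR adjusted p = 0.0326). The bound was 27.4-fold without the first WT library.

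Chrm4, a muscarinic receptor that lowers cyclic AMP, stood at 1.74 and 1.52 RPKM in WT and 1.75 and 1.57 RPKM in Aire-KO, a difference of -0.03 ± 0.41 (log2, SE) whose sign turned with the scaling (0.28 with library sizes alone). Grm7, a presynaptic glutamate receptor, stood at 1.55 and 1.41 RPKM in WT and 2.13 and 1.15 RPKM in Aire-KO, with overlapping groups and a sign that turned in the same way (-0.15 and 0.17). Chrm1, the muscarinic receptor of the forebrain, had 181 and 133 counts in WT and 38 and 24 in Aire-KO (edgeR adjusted p = 0.13, and 0.0478 with the block). All 5 dopamine receptor genes had fitted values above 0, and all lay under 1 RPKM, where 80.7% of all IDs had such values. None of the 5 passed the test without the block, whereas 2 (40.0%) were higher in WT with it, beside 16.5% of all IDs. Drd4, the highest of them, stood at 0.516 and 0.477 RPKM in WT and 0.124 and 0.0814 RPKM in Aire-KO (edgeR adjusted p = 0.139). Drd5, a receptor that raises cyclic AMP, had 82 and 12 counts in WT and 0 in both Aire-KO libraries, at least 14.1-fold higher in WT (edgeR adjusted p = 0.0643, and 0.0275 with the block). The bound was 5.98-fold without the first WT library and 22.2-fold without the replicate one, and 1386 bp of its exons overlap a noncoding transcript on the other strand.

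Chrnb3, Htr6 and Drd5 shared with Htr5b a count of 0 in both Aire-KO libraries. They were singled out after their values were seen. Chrnb3, the subunit that joins Chrna6 in receptors of dopamine neurons, had 42 and 20 counts in WT, at least 10.7-fold higher (edgeR adjusted p = 0.0558, and 0.0397 with the block). Htr6, a serotonin receptor of the striatum, had 43 and 27 counts in WT, at least 12.6-fold higher (edgeR adjusted p = 0.0514, and 0.0307 with the block).

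Within each experiment, taken alone and with no replicate, the ratio of WT to Aire-KO was set against the 3-fold limit of the study. The study joined this limit with a Z-score criterion, which was not applied here. In the first experiment 37 of 83 receptor genes (44.6%) were at least 3-fold higher in WT, beside 18.2% of all IDs with 10 counts in the pair, and 8 (9.64%) were at least 3-fold lower, beside 2.22%. In the replicate experiment 44 of 79 (55.7%) were higher, beside 19.7%, and 2 (2.53%) lower, beside 1.82%. In both, 32 of 79 (40.5%) were higher, beside 14.2%, and 1 of 79 (1.27%) was lower, beside 0.64%. The gene lower in both was Grin2d, and the 32 genes included each of the 9 called by edgeR. Gabra4, Gria1, Chrna3, Chrna5 and Chrnb2 were among the 8 genes 3-fold lower in the first experiment and were not so in the replicate one. The IDs set beside these shares were of all levels, whereas most receptor genes were low, and the shares were not split by level. In the replicate Aire-KO library 27 of the 83 receptor genes had 0 counts, so that ratios there rest on the WT count alone.

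**Figure D3:**
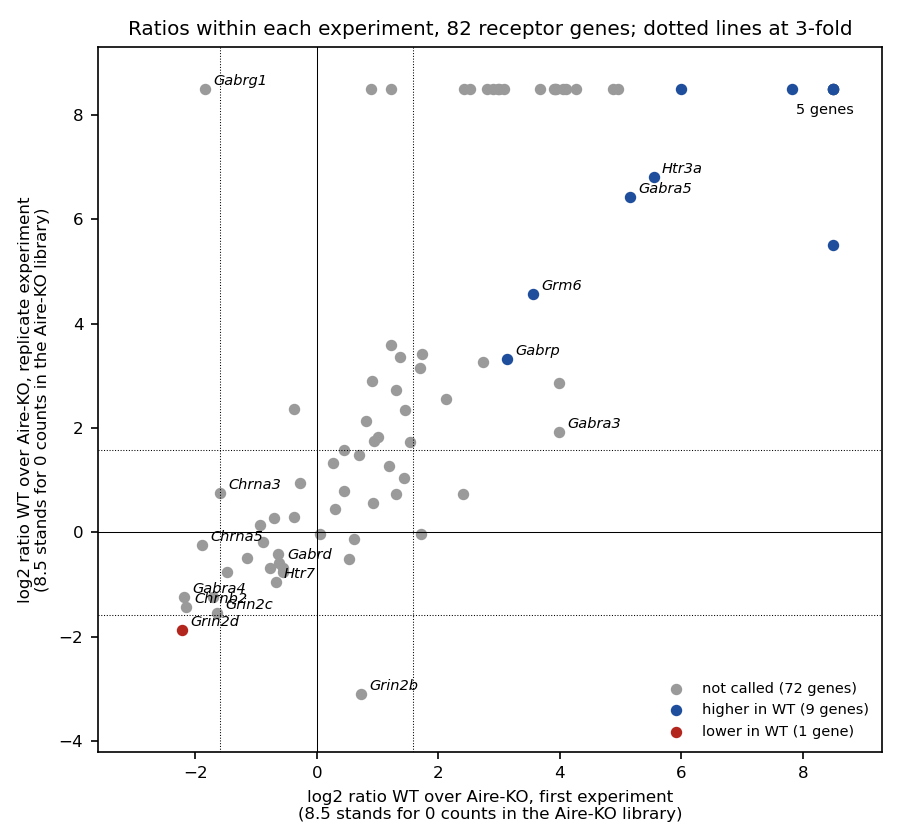
log2 ratio of WT to Aire-KO in the replicate experiment against that in the first one for 82 receptor genes, with dotted lines at 3-fold and points at 8.5 for genes with 0 counts in an Aire-KO library. The 9 genes called higher lie in the upper right, Grin2d in the lower left, and Gabrg1 and Grin2b change sides between experiments.

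The 2 Aire-KO libraries were unlike each other at these genes. The replicate Aire-KO library was the deepest of the 4 (242862323 counts) and yet had 0 counts at 27 of 83 receptor genes (32.5%), beside 17.7% of all genes. The first Aire-KO library had 0 counts at 6 (7.23%, beside 11.9%), the first WT library at none and the replicate WT library at 1. Of 63 receptor genes with 10 counts over the Aire-KO libraries, 24 were more than 3-fold higher in the first library, beside 9.61% of all IDs, and 1 (Gabra3) was more than 3-fold higher in the replicate library, beside 2.66%. Gabrg1, a gamma subunit, had 127 counts in the first Aire-KO library and 0 in the replicate one, against 51 and 23 in WT, and Grm5, a receptor at the edge of synapses, had 40 and 0 against 457 and 47. Together these 25 genes made up 39.7%, beside 12.3%. Between the WT libraries 12 of 83 receptor genes (14.5%) differed more than 3-fold, beside 8.35% of all IDs, each higher in the first library, beside 6.0%. The part of this difference between experiments in the comparison of genotypes was not tested.

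**Figure D4:**
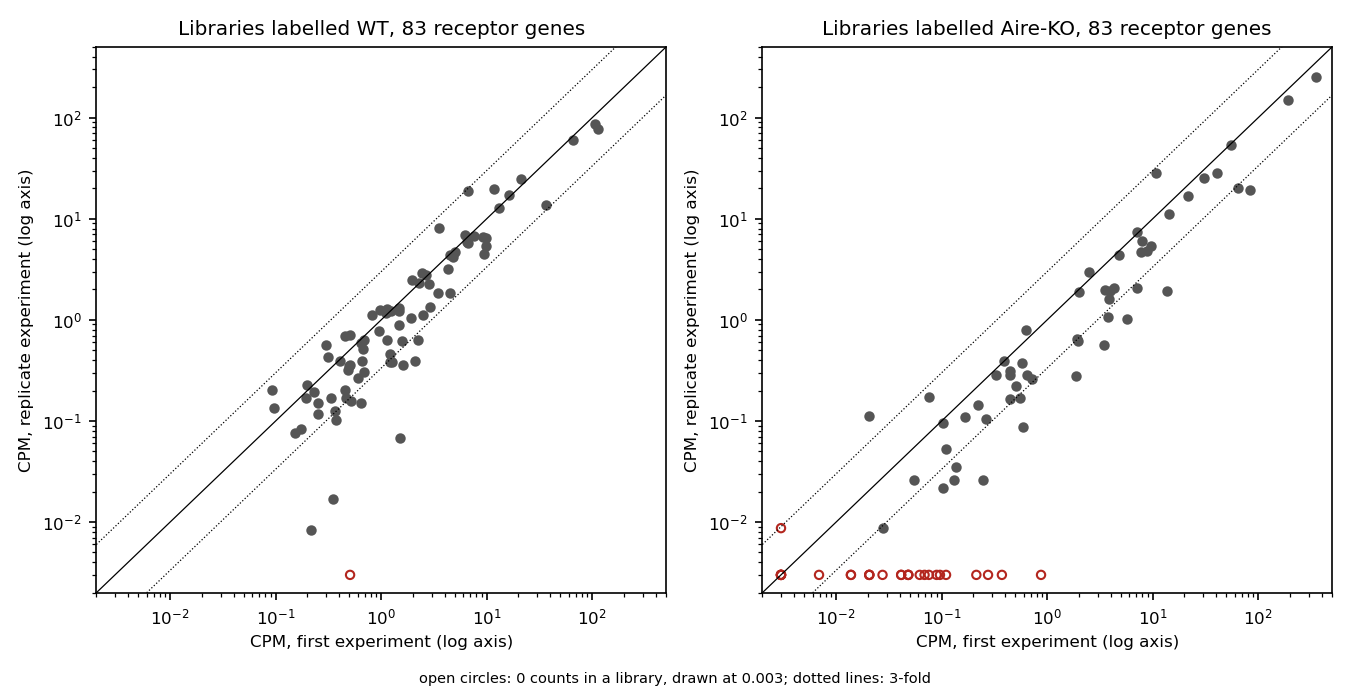
CPM of the 83 receptor genes in the replicate library against the first library of the same genotype (log axes), with dotted lines at 3-fold and open circles for 0 counts. In Aire-KO, 22 genes with reads in the first library had 0 counts in the replicate one, and 1 gene the reverse.

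Several receptor subunit genes are neighbours on the chromosome. On the mm9 build 26 of the 83 genes lay in 9 clusters with at most 1 Mb between neighbours, and 4 of the 9 genes called higher were in such clusters. In no cluster was more than 1 gene called. In the cluster of chromosome 9 (67.7 kb) all of Chrna5, Chrna3 and Chrnb4 had fitted values below 0. They had means of 1 RPKM or more, where 36.8% of all IDs had a fitted value above 0. Chrna5 had 3599 and 2039 counts in WT and 9299 and 4673 in Aire-KO (edgeR adjusted p = 0.255, and 0.0283 with the block). Chrna3 had 951 and 382 counts in WT and 1994 and 439 in Aire-KO, from libraries of unequal size. Scaled for this, Chrna3 stood at 4.34 and 3.2 CPM in WT and at 13.7 and 1.91 CPM in Aire-KO. Its groups overlapped, with WT above Aire-KO in the replicate pair (edgeR adjusted p = 0.603, and 0.523 with the block). In the pair of chromosome 8 (45.2 kb) Chrna6 and Chrnb3 were at or near 0 in Aire-KO, as given above.

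The study measured the use of alternative polyadenylation sites (pAs) by the d3'UTR ratio, the reads per base of the 3'UTR beyond a proximal pA over the reads per base of the last exon upstream of it. A low ratio stands for a preference for the short isoform. Of the 83 genes, 19 had such a distal region (d3'UTR), and in 3 of these it was shorter than a read of 50 bases, so that no read could be counted. Those were Htr7, Htr1a and Drd4. The 30 bases that end at each pA are printed for 4 genes, in mRNA sense from the NCBIM37 (mm9) genome, with the hexamers AATAAA and ATTAAA, which can act as polyadenylation signals, in capitals. They show which of the counted pAs carry a hexamer next to the ratios that follow.
Chrna3, proximal pA: gttcataaatATTAAAtccattagctcaga
Chrna3, distal pA: ctgagatAATAAAttttaaaggaggaaatg
Chrnb4, proximal pA: gaaggtgcaaAATAAAtgtttgttgaatga
Chrnb4, distal pA: cctacAATAAAgttgacttctttaaagttt
Chrnb2, proximal pA: gcttaaaggacataagtgacagacatctaa
Chrnb2, distal pA: agaaccaagatataaaactttgtaacagtc
Gabrp, proximal pA: ttttttaaaAATAAAaatgtttaaaatata
Gabrp, distal pA: atatgtgaaactataaAATAAAtatatagt

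The proximal stretches lie on the minus strand at chr9:54860334-54860363 (Chrna3), chr9:54877141-54877170 (Chrnb4), chr3:89560228-89560257 (Chrnb2) and chr11:33450858-33450887 (Gabrp), each in the last exon. The distal stretches end the same exons at chr9:54859150-54859179, chr9:54875963-54875992, chr3:89557370-89557399 and chr11:33450781-33450810. The ends of 8 receptor genes could be placed by an exact match of exon length. Of their proximal pAs 3 had AATAAA, 2 had ATTAAA only and 3 neither, and of their distal pAs 5, 1 and 2. Over 3619 RefSeq IDs placed in the same way, AATAAA was in 37.0% of the proximal and 49.9% of the distal stretches of 30 bases, on the transcribed strand, and ATTAAA alone in 13.4% and 14.1%.

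No receptor gene of the 15 tested passed the test for a difference in d3'UTR usage between genotypes (edgeR interaction of region and genotype, adjusted p = 1.0 for each), and none of the 8269 IDs tested did (0.0% called). None of the 15 had an unadjusted p under 0.05. Chrnb4, whose proximal and distal stretches both hold AATAAA, had ratios of 0.46 (95% exact counting interval 0.417 to 0.507) and 0.415 (0.357 to 0.482) in WT and of 0.382 (0.344 to 0.423) and 0.272 (0.247 to 0.299) in Aire-KO. Both Aire-KO values lay below both WT values, with a log2 difference in usage of 0.44 ± 0.33 (SE, edgeR adjusted p = 1.0). Chrnb2, with neither hexamer in either stretch, had ratios of 0.785 and 0.727 in WT and 0.642 and 0.689 in Aire-KO. Chrna3, with ATTAAA in its proximal and AATAAA in its distal stretch, had 0.899 and 0.517 in WT and 0.916 and 0.737 in Aire-KO. Its replicate values rest on 56 upstream reads in WT and 54 in Aire-KO. Gria3 ranged from 0.561 to 0.888, without a split by genotype. The median over receptor genes with 100 upstream reads was 0.579 and 0.561 in WT (10 and 5 genes) and 0.671 and 0.663 in Aire-KO (7 and 6 genes), beside 0.455 and 0.369 in WT and 0.434 and 0.36 in Aire-KO for all IDs with as many reads.

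**Figure D5:**
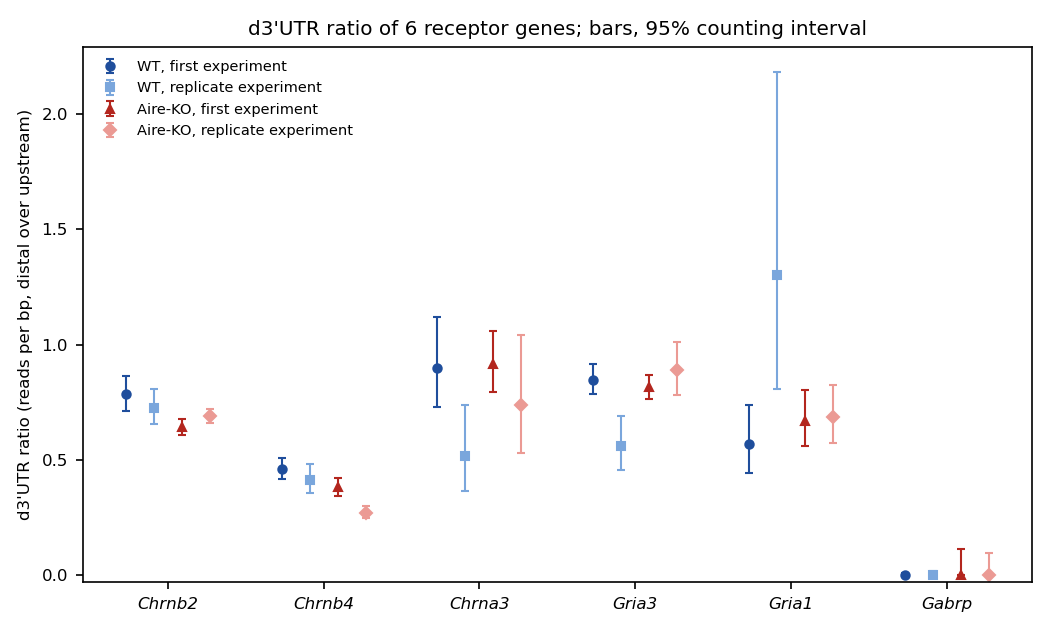
d3'UTR ratio in each library for 6 receptor genes, with the exact 95% binomial counting interval as bars, both from the full lengths of the regions. Chrnb4 lies at 0.272 to 0.46, Chrnb2 at 0.642 to 0.785, and Gabrp at 0 in all 4 libraries.

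Gabrp had no read in its d3'UTR in any library, beside 10894 and 4881 upstream reads in WT and 833 and 959 in Aire-KO. The d3'UTR spans 77 bp and leaves few positions for a read of 50 bases that must lie wholly inside it. With the full lengths of both regions, a count of 0 allowed a ratio of up to 0.0071 and 0.0158 in WT and 0.0928 and 0.0806 in Aire-KO. These limits are too low, since counting only the positions where a read fits would raise them. Whether the distal stretch can be mapped uniquely was not tested.

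The reads of low genes were also located along the transcript. In receptor genes with 100 counts or more, the share of reads in coding exons before the last one, divided by their share of the length, had a median of 0.926 and 1.0 in WT and 1.03 and 0.979 in Aire-KO. For Htr3a, 45.7% and 45.6% of the WT reads lay in those coding exons (243 and 156 reads), whereas all 8 and 6 Aire-KO reads lay in the last exon. For Grm6 it was 101 and 100 reads in WT and 2 and 0 in Aire-KO, where 14 and 12 reads lay in the last exon. Htr2c, a serotonin receptor of the choroid plexus, drew 97.4% and 90.9% of its WT reads and 94.9% and 100.0% of its Aire-KO reads from the last exon. Its coding exons before the last one hold 11.6% of its length, and the last exon as counted also includes coding sequence. Exons of 20 of the 83 genes overlapped an exon of another annotated gene, and reads of such stretches cannot be told apart where the strands differ.

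Genes that serve the receptors were described in 3 lists from the same fit, with no test of a list. Over all IDs, 5.58% were called higher and 0.258% lower, and 16.5% and 10.4% with the block. Of 40 genes for transmitter synthesis, vesicular loading, uptake and breakdown, 9 were higher in WT and none was lower, with a median log2 fold change of 1.44, and with the block 20 were higher and 7 lower. Slc6a12, a transporter of betaine and GABA, had 396 and 277 counts in WT and 3 and 3 in Aire-KO (edgeR adjusted p = 0.0176). Th, the rate-limiting enzyme of dopamine synthesis, had 1323 and 1184 against 8 and 44 (0.0194), and Tph2, the neuronal enzyme of serotonin synthesis, had 465 and 323 against 2 and 0 (0.0196). The GABA transporter Slc6a11 had 609 and 330 against 3 and 0 (0.0224).

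Of 49 scaffolds, auxiliary subunits and assembly factors, 6 were higher and 2 lower in WT, with a median log2 fold change of -0.02, and with the block 11 were higher and 10 lower. Lhfpl4, which helps GABA-A receptors to reach synapses, had 279 and 229 counts in WT and 13 and 28 in Aire-KO (edgeR adjusted p = 0.0341). Lynx1, a modulator of nicotinic receptors, stood at 17.8 and 48.9 CPM in WT and 3.46 and 4.63 CPM in Aire-KO (edgeR adjusted p = 0.0385). The synaptic adhesion gene Nrxn3 (edgeR adjusted p = 0.0361) and the pentraxin receptor Nptxr (0.0366) were higher too. The genes lower in WT were Cacng7 and Cacng8, auxiliary subunits of AMPA receptors, at 1.04 and 0.898 CPM against 5.84 and 4.15 CPM, and at 3.35 and 3.89 CPM against 17.3 and 11.9 CPM.

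Of 30 related receptors that the symbol rule does not cover, 1 was higher in WT and none was lower. It was P2rx1, an ATP-gated cation channel, with 1066 and 955 counts in WT and 120 and 146 in Aire-KO (edgeR adjusted p = 0.0304). The next by p were the histamine receptor Hrh2, with 53 and 40 counts in WT and 1 and 0 in Aire-KO (edgeR adjusted p = 0.0529), the adrenergic receptor Adra2c (156 and 103 against 4 and 0, 0.06) and the histamine receptor Hrh4 (140 and 60 against 3 and 0, 0.061). With the block 8 of the 30, these 3 among them, were higher and 2 lower. The part of the fibroblast and endothelial markers given above, whose sum was higher in Aire-KO, in the values of genes lower in WT was not tested.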

How the data were processed

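Bulk polyA-selected, non-directional RNA-seq of 4 mTEChi libraries was used. The raw counts were deposited by the authors: reads of 2 x 100 bases were trimmed and joined as single reads of 50 bases, filtered by CASAVA, mapped to mm9 with Bowtie 1.0.0, and counted with bedtools where they lay wholly inside an exon of a RefSeq ID. The deposited counts were not normalised, mates could be counted separately, and intervals cover counting error only. A second deposited table held counts per 5'UTR, coding exon, last exon and d3'UTR, with lengths.

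Of 30794 RefSeq IDs, the 26790 that passed the filter were fitted with edgeR 4.0.16 (R 4.3.3; TMM, filterByExpr, quasi-likelihood test, Benjamini-Hochberg adjustment), by genotype alone. CPM (counts per 1000000 over all RefSeq IDs) and RPKM (CPM per kilobase) are TMM-normalised. Symbols came from the RefSeq gene table of the GRCm38.p6 assembly (29352 of 30794 IDs matched), and positions from the GENCODE annotation of mm9. The fit was tested on simulated data. The members, lists and tests were chosen with earlier results of these data known. Genes named with values were those past the threshold, the highest and the most changed of each family, those with a d3'UTR and 100 upstream reads in both WT libraries, and the 4 smallest p of each companion list; others named were chosen after their values were seen. Some genes that the rule names are not reported here by name, but counts and medians include them. The study's text ties each replicate pair to an experiment, and libraries of 1 experiment deviated together (r = 0.53 across 26790 IDs, which are not independent), so a fit with the experiment as a block was an alternative. Others were DESeq2 1.42.0, other scalings and filters, other RefSeq IDs, the feature table and leaving out each library. With 2 pools per genotype, p-values measure only the spread between these libraries.

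Marker lists of cortical thymic epithelium, thymocytes, dendritic cells and macrophages, B cells, thymic tuft cells, neuroendocrine cells and skeletal muscle were also summed: their totals ran from 340.0 to 402.0, 82.5 to 99.7, 320.0 to 563, 30.8 to 51.9, 417 to 889, 433 to 652 and 155 to 432 CPM over the 4 libraries. Of their genes 1, 0, 3, 1, 0, 3 and 0, in this order, were higher in WT by the edgeR test, and none was lower.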

Additional observations from a re-analysis of the deposited data

How the results depend on the processing

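The counts of receptor genes called (9 higher and 1 lower in WT) moved with the model more than with scaling or filters. They were 25 and 5 with DESeq2, 31 and 9 with the replicate block, and 3 were lower with no filter on low counts. Leaving out 1 library gave 7 to 40 higher and 0 to 7 lower, and a median log2 fold change of 0.8 to 2.71 (1.54 with all libraries). Companion genes (16 higher and 2 lower) were 27 higher with library sizes alone, 34 and 6 with DESeq2, 39 and 19 with the block, and 18 to 33 and 0 to 3 when 1 library was left out. With at least 50 counts in the pair, 24 receptor genes were 3-fold higher in the replicate experiment and 17 in both, and at 2-fold 5 were lower in both.

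With library sizes alone the median over all IDs stood at 0.26 in place of -0.03 (log2). The sign turned for Gria2 without the first WT library (-0.64; range 10.24 at the other end), for Gria3 without the first Aire-KO library (0.37; other end -1.95), for Grm7 with library sizes alone (0.17) and without the first Aire-KO library (0.36; other end -0.53), and for Chrm4 with library sizes alone (0.28), without the distal 3'UTR (0.01), and without the replicate WT (0.08) or first Aire-KO library (0.06; other end -0.2); the cause was not tested. None of these 4 genes passed the test with all libraries. Of the values of named genes under the alternatives, 302 kept direction and side of the threshold, 34 passed it newly, 6 no longer passed it and 8 turned sign. No usage test called a receptor gene under any alternative run, and there the block could not be separated from the libraries. A planned description of protein sequences was not run. Genes with counts near the floor of 3 had wide intervals, and with 2 pools per genotype a missed threshold does not show that levels were alike.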
